A study of Mus musculus with 6 samples.

Results

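The Mas-related G protein–coupled receptors (Mrgpr) of sensory neurons were followed in dorsal root ganglia (DRGs) that had been made to express NIS-lncRNA, a long noncoding RNA studied for its part in neuropathic pain. The 7 receptor genes *Mrgprd*, *Mrgpra3*, *Mrgprb4*, *Mrgprb5*, *Mrgprx1*, *Mrgpre*, and *Mrgprf* were taken by symbol from a table of 48440 genes, and 7 of 7 passed the filter on low counts that left 18593 genes for testing. The 6 libraries, 3 per group, came from the ipsilateral L3/4 DRGs of wild-type male mice that had received a unilateral microinjection. The control group received an adeno-associated virus of serotype 5 carrying *Gfp* (AAV5-*Gfp*), and the other group received AAV5-*V1* mixed with AAV5-*V2*, which carry the V1 and V2 variants of NIS-lncRNA (AAV5-*V1*+*V2*). The labels give 5 weeks after microinjection for the harvest and 4 weeks for the comparison. Each group had its own virus, so the transcripts and the virus preparation cannot be told apart. The labels do not say that the libraries came from separate mice, so the p-values measure the spread between these libraries, which may be technical.

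Mrgpr genes encode a family of G protein–coupled receptors, many of which are found in small-diameter unmyelinated neurons. *Mrgprd*, a receptor for beta-alanine, marks nonpeptidergic nociceptors of the skin. *Mrgpra3*, the chloroquine receptor, and *Mrgprx1*, a receptor for the enkephalin-derived peptide BAM8-22 long known as MrgprC11, mark itch neurons. *Mrgprb4* marks C fibers that respond to stroking of hairy skin and *Mrgprb5* is its close relative, whereas *Mrgpre* and *Mrgprf* are orphan receptors.

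None of the 7 receptors passed the test for a change after AAV5-*V1*+*V2* (0 higher and 0 lower; quasi-likelihood test of edgeR, p adjusted over all genes by Benjamini-Hochberg, threshold 0.05). Among all genes tested, 10.1% were higher and 5.27% were lower by the same rule. The log2 fold change was below 0 for 5 receptors and above 0 for 2, with a median of −0.24, whereas the median of all genes tested was −0.00030. Without library 1 of AAV5-*V1*+*V2* the receptor median was −0.055, and over the other libraries left out in turn it ran from −0.36 to −0.17. At an unadjusted p under 0.05, *Mrgprd* and *Mrgpra3* were lower and *Mrgprf* was higher, and 15.5% of all genes were lower and 19.2% were higher by that rule. The libraries of the groups did not overlap for *Mrgprd*, *Mrgprb5*, and *Mrgprf*, which is 3 of 7 receptors, against 45.4% of all genes. With limma-voom 0 receptors were called, and with DESeq2 1 was lower.

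All 7 genes lie on mouse chromosome 7 (build GRCm38, GENCODE M21). *Mrgpra3*, *Mrgprx1*, *Mrgprb5*, and *Mrgprb4* belong to a proximal block of 28 family genes and pseudogenes between 47185707 and 48685614. *Mrgpre*, *Mrgprf*, and *Mrgprd* lie with 1 other family gene in a distal block that ends at 145324086. *Mrgprf* (chr7:145300828-145309557, plus strand, 3 exons) and *Mrgprd* (chr7:145314835-145324086, plus strand, 2 exons) lie 5277 bases apart. *Mrgprb5* (chr7:48167983-48169019) and *Mrgprb4* (chr7:48198070-48199288) are single-exon genes on the minus strand, 29050 bases apart.

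*Mrgprb4* and *Mrgprb5* were the most alike pair among the 7, with 84.5% identity of their coding sequences, against 50.5% to 63.4% for the other pairs. Their starts are shown because these near copies differed strongly in level, as given below. The first 90 coding bases (chr7:48199089-48199178 and chr7:48168896-48168985, minus strand) follow, 5′ to 3′, with capitals at the substituted bases. This stretch held 16 substitutions and 6 gap positions. Part of the gap positions lie at the end, where cutting both genes at 90 bases left the last bases of *Mrgprb4* unpaired.

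Mrgprb4: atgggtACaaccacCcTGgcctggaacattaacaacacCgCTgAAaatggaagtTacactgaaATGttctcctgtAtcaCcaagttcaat

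Mrgprb5: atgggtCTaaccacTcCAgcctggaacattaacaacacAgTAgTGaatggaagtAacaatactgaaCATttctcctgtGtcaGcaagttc

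The similarity extended upstream. The next stretch shows 140 bases taken from the RefSeq promoters (GRCm38.p6, minus strand, chr7:48199289-48199428 and chr7:48169096-48169235), which lie outside the annotated transcript of each gene. Capitals again mark the bases that differed, 30 of 140, which left 78.6% identity without a gap.

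Mrgprb4: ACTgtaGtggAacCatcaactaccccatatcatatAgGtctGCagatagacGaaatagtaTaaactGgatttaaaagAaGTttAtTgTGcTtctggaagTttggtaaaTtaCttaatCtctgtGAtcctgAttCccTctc

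Mrgprb5: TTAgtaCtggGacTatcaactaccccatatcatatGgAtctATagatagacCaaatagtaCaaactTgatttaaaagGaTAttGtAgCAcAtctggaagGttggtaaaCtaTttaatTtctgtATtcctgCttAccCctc

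Promoters in the same table matched 5 of the 7 receptors. The core motif of RUNX factors (TGTGGT, or ACCACA on the other strand) was found in 0 of these 5 promoters of 250 bases and in 14.0% of 32851 mouse promoters of that length. These letters were sought because *Runx1* is known to set the Mrgpr program during development. The 5 promoters are too few to tell 0 from that share. For *Mrgprb4* (chr7:48199179-48199428) and *Mrgprb5* (chr7:48168986-48169235), part of the 250 bases lies inside the annotated transcript.

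Reads of related genes could be confused, so each receptor's exons were searched for stretches shared with other genes. No stretch of 100 bases was shared for any of the 7, and at 50 bases the shared part was 7.14% of *Mrgpra3*, 5.84% of *Mrgprx1*, 1.45% of *Mrgprb4*, 1.35% of *Mrgpre*, 0.81% of *Mrgprb5*, and 0 for *Mrgprd* and *Mrgprf*. *Mrgpra3* shared most with *Mrgpra4*. Their longest identical run in coding sequence, 76 bases (chr7:47589886-47589961 in *Mrgpra3*, minus strand, within a coding exon), is shown because reads inside it fit both genes. All of its bases are identical in *Mrgpra4*.

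Mrgpra3: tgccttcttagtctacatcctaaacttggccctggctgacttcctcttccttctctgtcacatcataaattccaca

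Per kilobase of exon, *Mrgprd* had the highest level of the 7 in AAV5-*Gfp* DRGs, at 41.1 ± 1.75 CPM per kilobase (mean ± SD, n = 3), where CPM is the read count scaled to the size of the library. *Mrgpra3* (10.6 ± 1.48) and *Mrgprb5* (9.06 ± 0.229) came next on this scale, and their libraries overlapped. *Mrgprx1* (4.31 ± 1.07), *Mrgprf* (2.86 ± 0.395), and *Mrgpre* (2.37 ± 0.149) followed, each overlapping with its neighbor in the order. *Mrgprb4* was lowest, at 0.749 ± 0.476 CPM per kilobase, and did not overlap with *Mrgpre*. The order of the means was the same in AAV5-*V1*+*V2* DRGs, from 32.4 ± 6.60 for *Mrgprd* to 0.878 ± 0.370 for *Mrgprb4*. *Mrgprd* gave between 72.0% and 76.1% of the summed counts of the 7 receptors in each library.

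**Figure D1:**
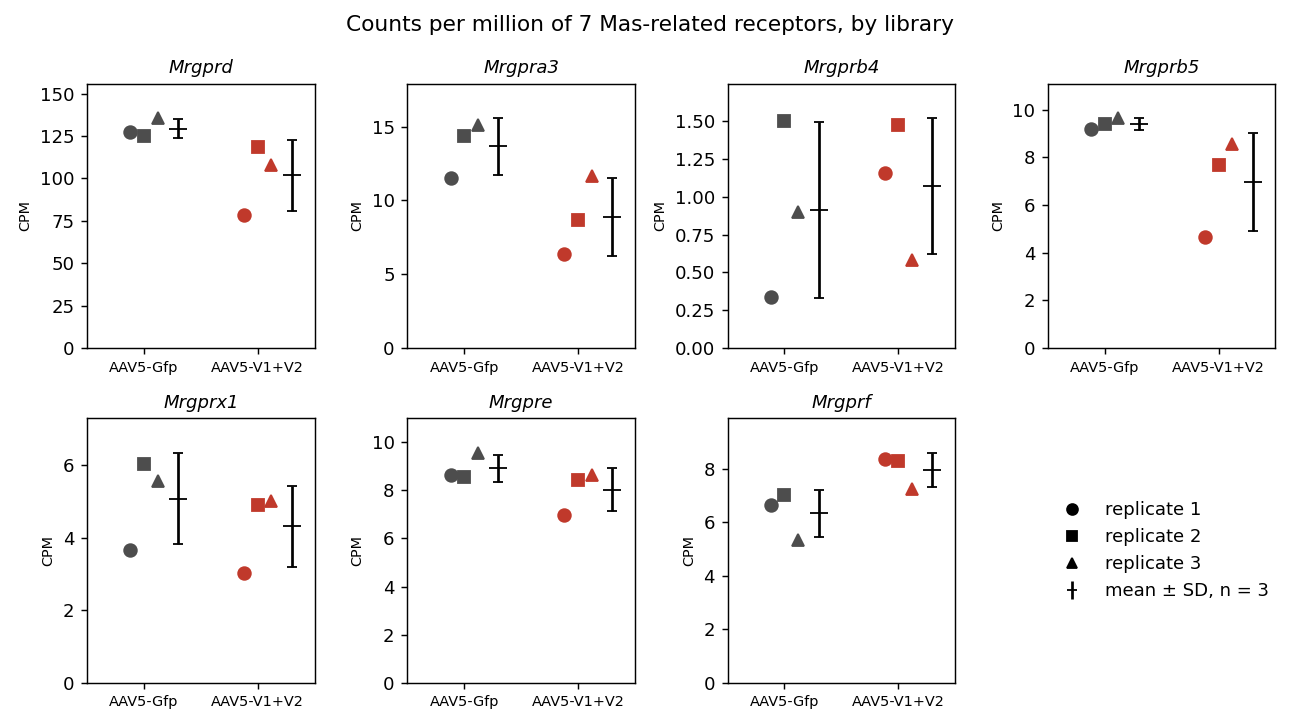
CPM (linear axis from 0) of each receptor in the 3 AAV5-*Gfp* (gray) and 3 AAV5-*V1*+*V2* (red) libraries; symbols mark the replicate number, and bars give the mean ± SD. The AAV5-*V1*+*V2* library 1 is the lowest point for *Mrgprd*, *Mrgpra3*, *Mrgprb5*, *Mrgprx1*, and *Mrgpre*. For *Mrgprf* it is the highest only narrowly (8.36 CPM, against 8.29 CPM in AAV5-*V1*+*V2* library 2).

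*Mrgprd* had 127, 125, and 136 CPM in the AAV5-*Gfp* libraries (4102, 4338, and 4229 counts) and 78.5, 119, and 108 CPM in the AAV5-*V1*+*V2* libraries (2584, 3945, and 3711 counts). The groups did not overlap, but library 1 of the AAV5-*V1*+*V2* group lay far below the other 2. Its log2 fold change was −0.35 ± 0.14 (SE; 95% interval −0.68 to −0.01; edgeR adjusted p = 0.135), and it was −0.18 without that library (adjusted p = 0.0888). In whole ganglia, fewer cells of a type and less RNA per cell cannot be told apart.

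*Mrgpra3* had 11.5, 14.4, and 15.1 CPM after AAV5-*Gfp* and 6.35, 8.65, and 11.6 CPM after AAV5-*V1*+*V2*. The highest AAV5-*V1*+*V2* library reached the lowest AAV5-*Gfp* library. The log2 fold change was −0.62 ± 0.22 (95% interval −1.13 to −0.11; edgeR adjusted p = 0.0944), the most negative of the 7. This was the receptor whose call depended on the test. It was lower with DESeq2 (log2 fold change −0.62, adjusted p = 0.0369), where 7.35% of all genes were lower. It was also lower in edgeR with the replicate number as a block (−0.65, adjusted p = 0.0192; 7.21% of all genes lower) and without library 3 of AAV5-*V1*+*V2* (−0.85, adjusted p = 0.0215; 7.63% of all genes lower). The adjusted p ran from 0.0192 to 0.288 over 16 alternatives.

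*Mrgprx1*, the other itch receptor of the set, had 3.66, 6.03, and 5.58 CPM after AAV5-*Gfp* and 3.04, 4.90, and 5.01 CPM after AAV5-*V1*+*V2*. Library 1 was low in both groups, and the groups overlapped. Its log2 fold change was −0.24 ± 0.26 (95% interval −0.84 to 0.36; edgeR adjusted p = 0.541), an interval that holds both a decrease and an increase.

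*Mrgprb5* had 9.17, 9.38, and 9.65 CPM in AAV5-*Gfp* libraries and 4.65, 7.66, and 8.57 CPM in AAV5-*V1*+*V2* libraries. The control libraries were tightly grouped and all were above the others. This gave a log2 fold change of −0.43 ± 0.21 (95% interval −0.93 to 0.06; edgeR adjusted p = 0.193), and without library 1 of AAV5-*V1*+*V2* it was −0.21.

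*Mrgprb4*, with the near-copy sequence shown above, was counted only 11, 52, and 28 times after AAV5-*Gfp* and 38, 49, and 20 times after AAV5-*V1*+*V2*. The counts varied as widely within a group as between groups. The log2 fold change was 0.22 ± 0.53 (95% interval −1.02 to 1.46; edgeR adjusted p = 0.794). Its direction turned without AAV5-*Gfp* library 1 (−0.17) and without AAV5-*V1*+*V2* library 2 (−0.07).

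Of the orphan receptors, *Mrgpre* (chr7:143778363-143784500, minus strand) had 8.61, 8.54, and 9.55 CPM after AAV5-*Gfp* and 6.99, 8.44, and 8.63 CPM after AAV5-*V1*+*V2*. Only library 1 of AAV5-*V1*+*V2* lay apart, and the groups overlapped. The log2 fold change was −0.15 ± 0.12 (95% interval −0.43 to 0.13; edgeR adjusted p = 0.410). *Mrgprf* had 6.66, 7.01, and 5.35 CPM after AAV5-*Gfp* and 8.36, 8.29, and 7.23 CPM after AAV5-*V1*+*V2*. It was the receptor of the set whose AAV5-*V1*+*V2* libraries were all above the AAV5-*Gfp* libraries. Its log2 fold change was 0.33 ± 0.14 (95% interval 0.00 to 0.65; edgeR adjusted p = 0.142).

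The neuronal share of the RNA also differed between the libraries. The summed level of 16 pan-neuronal genes was 11953, 11254, and 12273 CPM in the AAV5-*Gfp* libraries and 7224, 9967, and 10484 CPM in the AAV5-*V1*+*V2* libraries. All 16 had a log2 fold change below 0, with a median of −0.41 (−0.23 without library 1 of AAV5-*V1*+*V2*). By the test 3 were lower, namely *Rbfox3* (−0.93), *Syt1* (−0.73), and *Map2* (−0.56), beside 5.27% of all genes. Without AAV5-*Gfp* library 1, 2, or 3, or AAV5-*V1*+*V2* library 2, 0 of the 16 were lower by this test. Without AAV5-*V1*+*V2* library 1 or 3, 7 were lower (5.79% and 7.63% of all genes). Over the 6 libraries left out in turn, the median ran from −0.50 to −0.23. The defining markers of a sensory ganglion were present. *Tubb3*, a neuronal tubulin, averaged 1464 CPM after AAV5-*Gfp* and 1089 CPM after AAV5-*V1*+*V2*, and *Scn10a*, the nociceptor sodium channel Nav1.8, averaged 671 and 446 CPM.

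**Figure D2:**
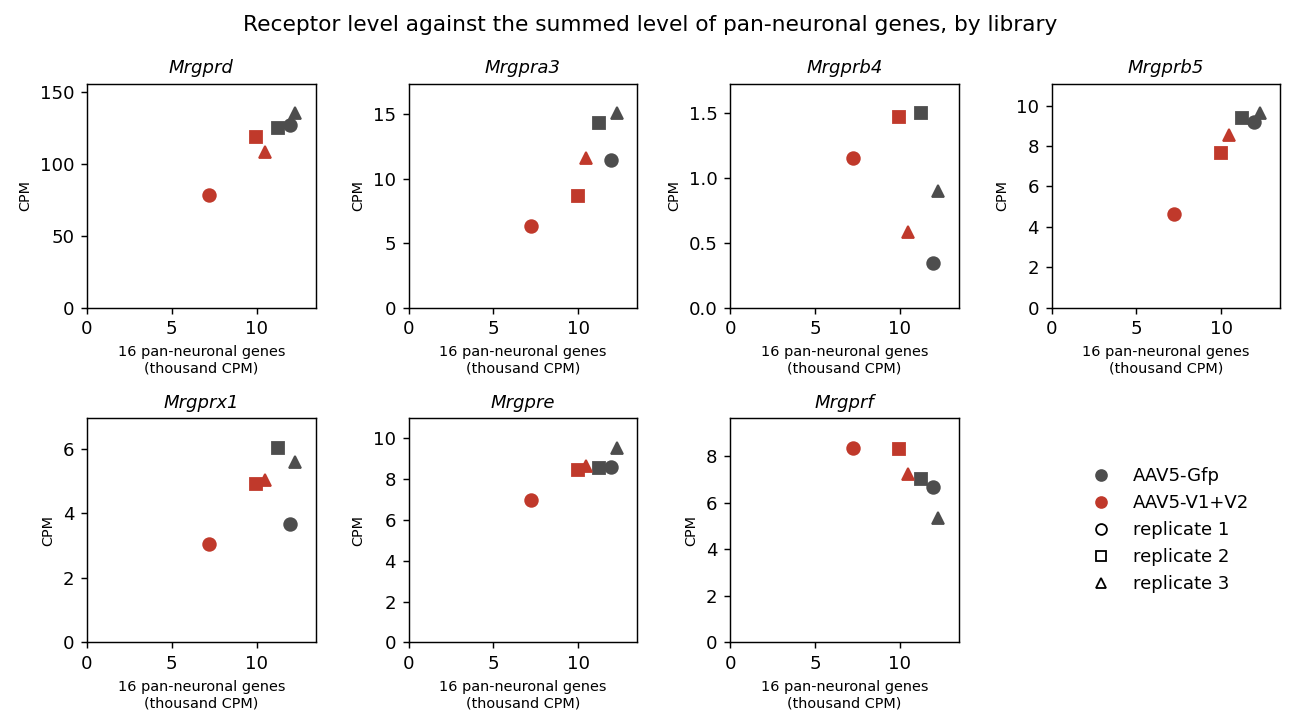
Receptor level (CPM) against the summed level of 16 pan-neuronal genes (CPM divided by 1000), 1 point per library, both axes linear from 0; gray is AAV5-*Gfp* and red is AAV5-*V1*+*V2*. *Mrgprd*, *Mrgprb5*, and *Mrgpre* are lowest in the library with the least pan-neuronal RNA (7224 CPM). *Mrgprf* is highest there only narrowly (8.36 CPM, against 8.29 CPM in AAV5-*V1*+*V2* library 2).

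The pan-neuronal sum is weighted toward its most abundant genes, named after their values were seen. After AAV5-*Gfp*, *Nefm* averaged 2249, *Nefl* 2208, *Tubb3* 1464, and *Nefh* 1111 CPM. Their log2 fold changes were −0.31, −0.28, −0.43, and −0.26, beside the list median of −0.41. Set against the pan-neuronal counts of the same library, *Mrgprd* was nearly level. It had 106, 111, and 110 counts per 10000 pan-neuronal counts after AAV5-*Gfp* and 109, 119, and 103 after AAV5-*V1*+*V2*, and the groups overlapped. *Mrgpra3* had 9.62, 12.8, and 12.3 against 8.79, 8.68, and 11.1 on this scale, again with overlap. *Mrgprf* had 5.57, 6.23, and 4.36 against 11.6, 8.32, and 6.90, and *Mrgpre* had 7.21, 7.59, and 7.78 against 9.68, 8.47, and 8.23. For these 2 orphan receptors the groups did not overlap on this scale, and AAV5-*V1*+*V2* was the higher group. The share of all genes without overlap on this scale was not computed, so this is not read as particular to them. Scaling to the pan-neuronal counts raised the median of all genes to 0.39, and *Mrgpre*, at 0.22, stayed below that median.

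When each library was scaled to these pan-neuronal counts in edgeR, the median of all genes moved from −0.00030 to 0.39. The log2 fold change became 0.012 for *Mrgprd* (95% interval −0.26 to 0.28), −0.28 for *Mrgpra3*, −0.10 for *Mrgprb5*, 0.10 for *Mrgprx1*, 0.22 for *Mrgpre*, 0.61 for *Mrgprb4*, and 0.72 for *Mrgprf* (95% interval 0.15 to 1.30; edgeR adjusted p = 0.0892). Relative to the shifted median, *Mrgprd* was at −0.38, *Mrgpra3* at −0.67, *Mrgprb5* at −0.49, and *Mrgprf* at 0.33. The receptor median was 0.10 before this subtraction. The subtracted values lie close to those under the usual normalization by construction, because the scaling moves all genes by a similar amount. The estimates for *Mrgprd*, *Mrgprx1*, and *Mrgpre* were thus below the median gene but not below the summed pan-neuronal level. Under the scaling, the 95% interval of each held both a decrease and an increase. Those of *Mrgprx1* and *Mrgpre* did so under the usual normalization as well. The part of the neuronal share in the levels of these receptors was not tested.

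**Figure D3:**
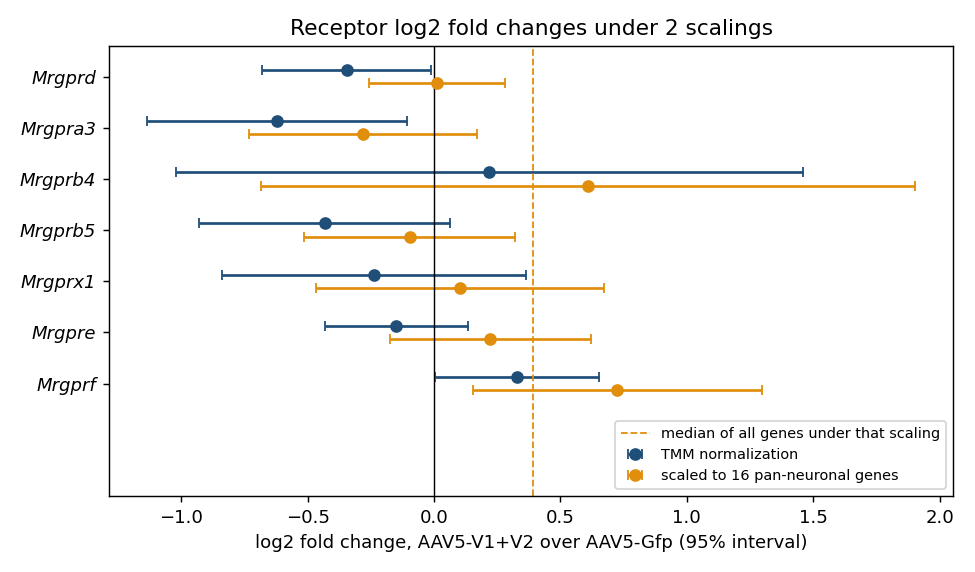
Log2 fold change (AAV5-*V1*+*V2* over AAV5-*Gfp*) of each receptor with its 95% interval, under trimmed-mean (TMM) normalization (blue) and after scaling to 16 pan-neuronal genes (orange); the dashed line is the median of all genes under the latter scaling, 0.39. *Mrgprd* moves from −0.35 to 0.012, and *Mrgprf* from 0.33 to 0.72.

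Among the receptors themselves, the balance to *Mrgprd* was compared over 6 ratios with an exact two-sided permutation test, for which 3 against 3 libraries allow no p below 0.1. *Mrgprf* had 52.4, 56.0, and 39.5 counts per 1000 *Mrgprd* counts after AAV5-*Gfp* and 106, 70.0, and 66.8 after AAV5-*V1*+*V2*. This log2 difference of 0.70 gave the smallest p that the design can give, 0.1 (0.3 after Benjamini-Hochberg adjustment over the 6 ratios, exact permutation test). *Mrgpre* relative to *Mrgprd* did not overlap either (log2 difference 0.21, exact p = 0.1, adjusted 0.3), and the other ratios overlapped between groups. Correlations are given as a description only, because the 6 libraries differ in their neuronal content. The log2 CPM of *Mrgprd* had a Pearson's r of 0.95 with *Mrgprb5*, 0.94 with *Mrgpre*, 0.86 with *Mrgpra3*, −0.19 with *Mrgprb4*, and −0.70 with *Mrgprf*.

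The genes whose pattern over the 6 libraries was most like that of each receptor were sought among 14563 other genes (14564 for *Mrgprb4*), again as a description. For *Mrgprd* they were *Prmt2*, *Ttyh1*, and *Pcbd1* (Pearson's r of 0.998, 0.997, and 0.996). For *Mrgprb5* they were *Cdk5*, *Ndrg4*, and *Synm* (0.999, 0.998, and 0.998), and for *Mrgpre* *Deb1*, *1700030J22Rik*, and *Eif4e* (0.999, 0.998, and 0.997). For *Mrgpra3* they were *Lnx1*, *Golim4*, and *Uggt2* (0.996, 0.996, and 0.995), and for *Mrgprx1* *AI838599*, *Tsn*, and *Dnaja4* (0.990, 0.979, and 0.973). *Mrgprb4*, with few counts, was most like *A430046D13Rik*, *Tmem208*, and *6430550D23Rik* (0.994, 0.988, and 0.974). For *Mrgprf* the first was *Cx3cr1* (0.993), a chemokine receptor of macrophages, followed by *P3h3* (0.992) and *Mogs* (0.991). *Cx3cr1* itself had a log2 fold change of 0.71 (edgeR adjusted p = 0.0525). With 6 points and so many genes, correlations near 1 are easily found.

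The other receptor family genes that were tested were likewise mostly below 0. Of 14 other family genes listed, 10 passed the filter, 0 were called in either direction, and 9 of these 10 had a log2 fold change below 0, with a median of −0.38. By an unadjusted p in edgeR, by DESeq2, and by limma-voom, 0 of them were called as well. All of them except *Mrgpra2b* had at most 88 counts in any library, so their folds carry a large counting error. *Mrgpra4*, which shares the sequence run shown above with *Mrgpra3*, had 1.36, 1.24, and 1.31 CPM after AAV5-*Gfp* and 0.365, 0.781, and 1.14 CPM after AAV5-*V1*+*V2* (log2 fold change −0.77 ± 0.36, edgeR adjusted p = 0.178). *Mrgpra2b*, named after its values were seen because it had the most counts of these 10, had 24.4, 39.0, and 44.0 CPM against 29.6, 36.2, and 29.1 CPM, and the groups overlapped.

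Genes of the neurons that carry these receptors were described by lists, whose counts stand beside 5.27% of all genes lower and 10.1% higher in edgeR, 7.35% and 12.2% in DESeq2, and 4.53% and 7.64% in limma-voom. Of 10 nonpeptidergic nociceptor genes, 3 were lower and 0 higher, with a median log2 fold change of −0.41 (7 lower with DESeq2 and 2 with limma-voom). The G protein subunit gene *Gna14* fell by 0.47 on the log2 scale, from 94.6 ± 7.39 CPM to 68.2 ± 8.59 CPM (edgeR adjusted p = 0.0309). The neurturin receptor gene *Gfra2* fell by 0.48 (adjusted p = 0.0491). The ATP receptor gene *P2rx3* was just outside the threshold, with −0.47 (adjusted p = 0.0510).

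Of 9 itch neuron genes, 2 were lower and 0 higher (median −0.34). Without library 1 of AAV5-*V1*+*V2*, 1 was lower (median −0.18), with 5.79% of all genes lower. The serotonin receptor gene *Htr1f* was 45.5 ± 5.45 CPM after AAV5-*Gfp* and 24.2 ± 5.78 CPM after AAV5-*V1*+*V2* (log2 fold change −0.91 ± 0.18, edgeR adjusted p = 0.0226). The interleukin-31 receptor gene *Il31ra* fell by 0.46 (adjusted p = 0.0477). The itch neuropeptide genes *Nppb* (−0.34, adjusted p = 0.296) and *Sst* (−0.70, adjusted p = 0.115) did not pass. The list was not uniformly lower, as 3 of its 9 genes had a log2 fold change above 0, at most 0.12. In the C fiber low-threshold list, 2 of 5 tested genes were lower (median −0.37), *Piezo2* (−0.59) and again *Gfra2*, and *Th* had −0.35 (adjusted p = 0.0794). None of 7 peptidergic nociceptor genes passed (0 higher, 0 lower, median −0.28), *Calca* among them (−0.26), although at an unadjusted p in edgeR 3 were lower and 1 was higher (0 with DESeq2 or limma-voom), and 4 of 7 myelinated neuron genes were lower (median −0.51).

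Calls in these lists depended on single libraries. Without AAV5-*Gfp* library 2, 0 of all genes were lower by edgeR's adjusted p, and 2029 at an unadjusted p under 0.05, 8 of them in the nonpeptidergic list. Without AAV5-*Gfp* library 3 these numbers were 0, 1815, and 5. Without AAV5-*Gfp* library 1 or AAV5-*V1*+*V2* library 2, which left 59 and 150 genes lower in all, 0 nonpeptidergic and 0 itch neuron genes were lower. Calls remained without AAV5-*V1*+*V2* library 1, with 3 nonpeptidergic and 1 itch neuron genes lower (5.79% of all genes). They also remained without AAV5-*V1*+*V2* library 3, with 6 and 2 lower (7.63% of all genes). The folds changed less than the calls. Over the 6 libraries left out in turn, the log2 fold change ran from −0.52 to −0.37 for *Gna14*, from −0.56 to −0.36 for *Gfra2*, from −1.07 to −0.73 for *Htr1f*, and from −0.57 to −0.37 for *Il31ra*. Scaling to the pan-neuronal counts, which raised the median of all genes to 0.39, left 0.0861% of all genes lower (16 genes) and 0 genes of these lists by edgeR (1 itch neuron gene and 2 myelinated neuron genes at an unadjusted p, 237 of all genes). Because this scaling shifted all genes, the lost calls were not read as a result about the lists. The list medians under it were −0.037 (nonpeptidergic), 0.045 (itch neuron), −0.0020 (low-threshold C fiber), 0.095 (peptidergic), and −0.14 (myelinated).

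**Figure D4:**
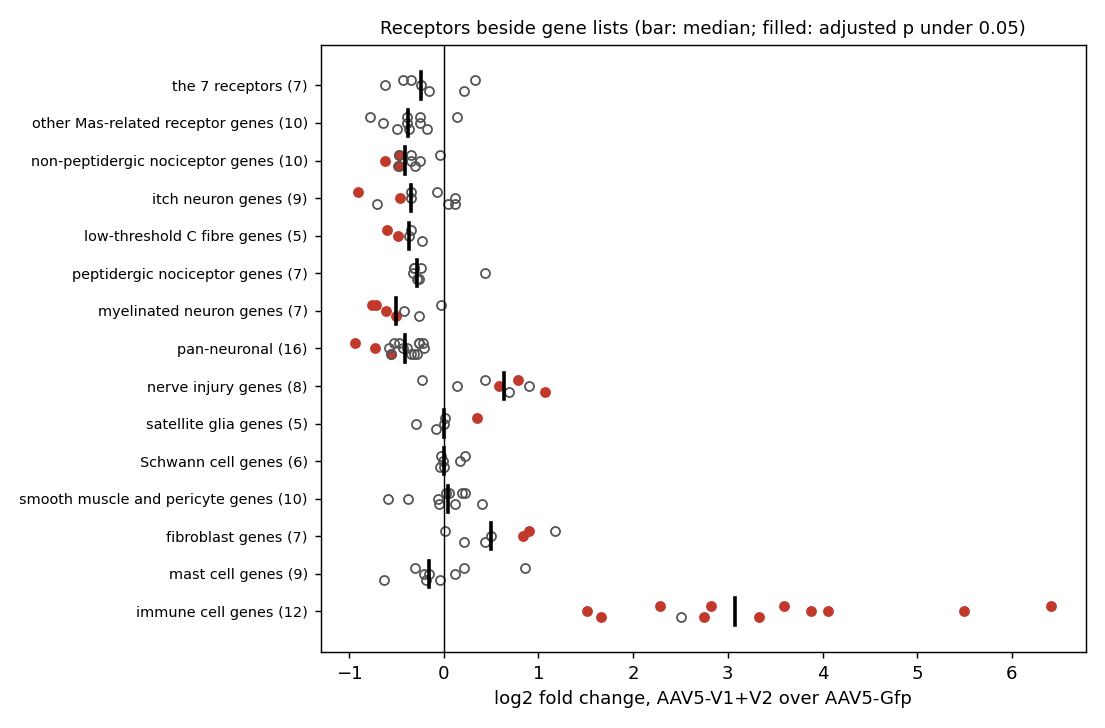
Log2 fold change (AAV5-*V1*+*V2* over AAV5-*Gfp*) of the 7 receptors and of the genes of 14 lists, with the number tested in parentheses; filled red points passed the test, open points did not, and the black bar is the median. The median is −0.24 for the receptors, −0.41 for the pan-neuronal list, and 3.08 for the immune list.

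Of 14 signaling genes that act with such receptors, 4 were lower and 2 higher (median −0.29), beside 5.27% and 10.1% of all genes. Without AAV5-*Gfp* library 2 or 3, 0 were called by edgeR, and without AAV5-*Gfp* library 1, 1 was lower and 0 higher. Leaving out AAV5-*V1*+*V2* library 1, 2, or 3 gave 5, 1, and 4 lower and 1, 1, and 2 higher. *Ano1*, a calcium-activated chloride channel, had 38.9, 40.7, and 42.0 CPM after AAV5-*Gfp* and 25.4, 27.4, and 27.6 CPM after AAV5-*V1*+*V2* (log2 fold change −0.60 ± 0.07, edgeR adjusted p = 0.0139). The groups were well apart, and library 1 of AAV5-*V1*+*V2* was close to the other 2. *Gna14* and *Gnai1* (−0.30) were also lower. The higher members were *Plcb2* (1.91), a phospholipase C of blood cells, and *Gnai2* (0.47), a G protein subunit abundant in leukocytes. The irritant channel genes *Trpa1* (−0.48, adjusted p = 0.0866) and *Trpv1* (−0.31, adjusted p = 0.143) did not pass.

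Of 5 genes for precursors of peptide ligands, 3 were tested and 0 were called (1 higher at an unadjusted p in edgeR, and 0 with DESeq2 or limma-voom). *Penk*, the precursor of BAM8-22, had 4.18, 4.16, and 3.17 CPM after AAV5-*Gfp* and 2.31, 3.33, and 3.94 CPM after AAV5-*V1*+*V2*, and the groups overlapped (log2 fold change −0.26, edgeR adjusted p = 0.433). *Npff* did not pass the filter, with 0 to 0.146 CPM.

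Of 9 transcription factors of sensory neuron identity, 2 were lower (5.27% of all genes) and 1 higher (median −0.39), the latter a share close to the 10.1% of all genes. Without AAV5-*Gfp* library 1, 2, or 3, 0 were called by edgeR. Leaving out AAV5-*V1*+*V2* library 1, 2, or 3 gave 3, 1, and 3 lower and 2, 1, and 2 higher. *Pou4f1* (−0.43, edgeR adjusted p = 0.0376) and *Prdm12* (−0.65, adjusted p = 0.0438), a regulator of nociceptor fate, were lower, and *Runx3* (1.60, adjusted p = 0.0224) was higher. *Runx1* had 105, 110, and 133 CPM after AAV5-*Gfp* and 251, 156, and 154 CPM after AAV5-*V1*+*V2*, without overlap (log2 fold change 0.69 ± 0.20, adjusted p = 0.0577). Library 1 of AAV5-*V1*+*V2* had the most *Runx1* and the least *Mrgprd*. *Runx1* and *Runx3* are also active in leukocytes.

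Markers of other cells moved beside these results. Of 12 immune cell genes, 11 were higher, against 10.1% of all genes, with a median log2 fold change of 3.08, and their summed level was 121, 84.3, and 74.4 CPM after AAV5-*Gfp* and 1325, 683, and 582 CPM after AAV5-*V1*+*V2*. The library with the least pan-neuronal RNA thus had the most immune RNA. Without AAV5-*Gfp* library 2, where 0.0634% of all genes were higher, 1 immune cell gene was called, at a median of 2.92, and without AAV5-*Gfp* library 3 also 1, at a median of 2.94. For fibroblasts 2 of 7 genes were higher (median 0.50), and their summed level was 1267 to 1647 CPM and 1968 to 2938 CPM. Nerve injury genes were higher for 3 of 8 (*Atf3*, *Csf1*, and *Ecel1*), with a median of 0.64. Without AAV5-*Gfp* library 1, 2, or 3, 0 fibroblast and 0 nerve injury genes were called by edgeR, with medians of 0.46 to 0.57 and 0.59 to 0.66. Medians of satellite glia (0.00), Schwann cell (0.00), endothelial (0.03), and smooth muscle and pericyte genes (0.04) were near 0, but single members passed. *Pecam1*, an adhesion molecule of endothelium and leukocytes, was higher (0.88) and the endothelial receptor gene *Flt1* lower (−0.42), and the glial glutamate transporter gene *Slc1a3* was higher (0.35). No smooth muscle or mast cell gene was called by edgeR (1 mast cell gene was higher at an unadjusted p and with DESeq2, 0 with limma-voom), and *Myh11* (0.03) and *Cpa3* (−0.16) overlapped between groups. The part of these cells in the level of *Mrgprf* or any other receptor was not tested.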

How the data were processed

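RNA of DRGs was sequenced from stranded total RNA libraries, and the authors deposited a table of raw read counts per gene for 6 libraries, 3 per group. The submitters' processing notes name build GRCm38 (mm10). The aligner, counter, and annotation are not given in the sources used here. Total counts were 32025612 to 34764282 per library, so a receptor with few counts (*Mrgprb4*) carries a large counting error. Groups came from the sample titles. Genes were filtered with filterByExpr, normalized with TMM, and tested in edgeR 4.0.16 (R 4.3.3) by glmQLFit and glmQLFTest without covariates, with Benjamini-Hochberg adjustment over 18593 genes and a threshold of 0.05. CPM used the TMM-scaled library sizes. Standard errors came from the coefficient and its F statistic, and intervals (95%) used the moderated degrees of freedom. The procedure was tested on simulated data. DESeq2 1.42.0, limma-voom (limma 3.58.1), other normalizations and filters, a replicate block, leaving out each library, and scaling to 16 pan-neuronal genes were alternatives. Likeness between genes was Pearson's r of log2 CPM (prior count 2), over genes averaging 1 log2 CPM or more, the first 3 being named. Named genes were the 7 receptors, at most 4 members per list with the smallest p, and members with a stated role. The receptors and lists were chosen with earlier results of these data known. Positions and exon lengths came from GENCODE M21 (GRCm38), so lengths may differ from the authors' annotation. Promoters came from RefSeq (GRCm38.p6). The overexpressed RNA itself was not analysed here, and 1 list member, counted in its lists, is not reported here by name.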

Additional observations from a re-analysis of the deposited data

How the results depend on the processing

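*Mrgpra3* was lower in 3 of 16 alternatives, namely DESeq2 (−0.62), the replicate block (−0.65), and without AAV5-*V1*+*V2* replicate 3 (−0.85). Accordingly, 1 receptor was lower under each of these and at an adjusted p under 0.1. At an unadjusted p under 0.05, 2 receptors were lower and 1 was higher, with 2878 and 3577 of all genes. Scaling to pan-neuronal counts reversed *Mrgprd* (0.012), *Mrgprx1* (0.10), and *Mrgpre* (0.22), as the median of all genes moved to 0.39, and left 16 genes lower in all. Counting calls under this scaling, and the list counts under it and without single libraries, were added after seeing the data. DESeq2 called 1488 genes lower, and an adjusted p under 0.1 gave 2898 higher and 2030 lower.

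Leaving out 1 library, the log2 fold change ran from −0.46 to −0.18 for *Mrgprd*, −0.85 to −0.42 for *Mrgpra3*, −0.17 to 0.79 for *Mrgprb4*, −0.60 to −0.21 for *Mrgprb5*, −0.43 to −0.03 for *Mrgprx1*, −0.20 to −0.06 for *Mrgpre*, and 0.22 to 0.40 for *Mrgprf*. *Mrgprb4* reversed without AAV5-*Gfp* replicate 1 (−0.17) and without AAV5-*V1*+*V2* replicate 2 (−0.07). The receptors called ran from 0 to 1 lower, and all genes called from 12 to 2474 higher and 0 to 1446 lower. The lowest counts came without AAV5-*Gfp* replicates 2 (12 and 0) and 3 (15 and 0), and counts also fell without AAV5-*Gfp* replicate 1 (257 and 59) and AAV5-*V1*+*V2* replicate 2 (1020 and 150). The cause was not tested.

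Replicate numbers did not pair the libraries (correlations 0.036, 0.066, and 0.107), so the replicate block (1341 genes lower) is an alternative only. No receptor row carried a numeric suffix, so summing such rows was not applicable. The low counts of *Mrgprb4* limit what can be detected.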
